A study of Mus musculus with 6 samples.

Results

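The genes described are 40 genes of glucose uptake, glycolysis, glycogen metabolism and the response to low oxygen, measured by RNA sequencing in activated mouse regulatory T cells. They were chosen by name, as the table entries whose Ensembl gene ID maps to one of 40 listed symbols. They came out of 47069 genes with such an ID in both deposited tables. The list was drawn up with earlier results of these data known. All 40 were found, and they were ordered in 8 groups by role: 2 glucose transporters, 9 enzymes of upper glycolysis, 2 enzymes that set fructose 2,6-bisphosphate, 7 enzymes of lower glycolysis, 4 genes of lactate and pyruvate handling, 3 glycogen enzymes, the hypoxia-inducible factor Hif1a with 2 of its oxygen sensors, and 10 further targets of that factor outside glycolysis.

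Glycolysis splits glucose into pyruvate in the cytosol and yields ATP without oxygen, and lactate dehydrogenase turns pyruvate into lactate to keep the pathway running. When oxygen is plentiful, prolyl hydroxylases of the Egln family mark the protein HIF-1alpha, the product of Hif1a, for destruction. When oxygen is short or the enzymes are inhibited, HIF-1alpha pairs with Arnt and switches on glucose transporters, most glycolytic enzymes and genes such as Vegfa and Bnip3, and it can also be induced in oxygenated T cells by antigen receptor and mTOR signals. Activated T cells raise glucose uptake and glycolysis, while regulatory T cells are known to rely more on mitochondrial oxidation than other activated CD4 T cells and to have their glycolysis restrained by Foxp3.

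The cells were GFP+ CD62Lhigh CD4 regulatory T cells sorted from lymph node and spleen and stimulated with Dynabeads for 48 h or 72 h. The mice were Foxp3CreNoc4l+/fl (Het), with 1 floxed allele of Noc4l, or Foxp3CreNoc4lfl/fl (cKO, conditional knockout), with 2, and every library thus came from cells with Cre expressed from Foxp3. These genotypes come from each library's own label, while the protocol text of the labels writes 1 floxed and 1 wild-type allele for both groups. No library without Cre or without a floxed allele was analysed here, and the labels do not say how many animals stand behind a library, so the p-values reflect only how much these libraries differed, which may be technical. The 6 libraries are called here by label and replicate number: Het 1 and cKO 2 at 48 h, Het 1 and cKO 2 at 72 h (together the first deposited table), and Het 3 and cKO 4 at 72 h (the second table). The second table holds no library of 48 h. Where Het 3 or cKO 4 is set beside 48 h libraries, time and table cannot be told apart. Values are FPKM, fragments per kilobase of transcript scaled to the size of the library. A lower value can mean fewer cells with the transcript or less of it per cell, which cannot be told apart in bulk RNA.

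The libraries held an estimated 16450000 to 28740000 fragments. Noc4l, the targeted gene, encodes a nucleolar factor related to a yeast protein of small ribosomal subunit assembly. It stood at 99 FPKM in Het 1 against 124 in cKO 2 at 48 h, 48.8 against 81.7 in the same pair at 72 h, and 40.8 in Het 3 against 58.1 in cKO 4, so in each pair it was higher in the library labelled cKO. A lower level in cKO was thus not seen. These values cover the whole gene and single exons were not examined, so they cannot show whether the labels are right. The protocol text does not match the genotype labels, and cKO below always means the library labelled cKO. Foxp3 stood at 147.2 to 335.9 FPKM, and the other 6 regulatory T cell markers, Il2ra, Ctla4, Ikzf2, Tnfrsf18, Cd4 and Cd3e, all stood at 147.2 FPKM or more in every library. Myeloid markers stood apart in cKO 2, where the 10 genes summed to 428.7 FPKM at 48 h and 367.8 at 72 h, against 44.03 and 39.0 in Het 1, 21.88 in Het 3 and 75.64 in cKO 4. The neutrophil genes S100a8, S100a9, Camp, Lcn2 and Lyz2 were listed at 0 in Het 3 and cKO 4. The 5 markers of CD8 T and NK cells summed to 36.8 in Het 1 and 74.4 in cKO 2 at 72 h, and to 5.84 to 8.42 elsewhere. The 6 B cell markers summed to 200.3 and 233.6 FPKM in the Het and cKO libraries of 48 h, 160.1 and 265.2 in the first pair of 72 h, and 316.5 and 495.5 in the second, so the sum was higher in cKO in each pair. Most of it was the immunoglobulin gene Ighm, highest in cKO 4 at 487.3 FPKM, while Pax5 was highest in cKO 2 at 72 h, at 25.2 FPKM. The part of these markers in the members' values was not tested, and the 8 erythroid and platelet markers summed to 1.45 to 31.2 FPKM.

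The 40 genes made up 3.76% (Het 1) and 2.65% (cKO 2) of all FPKM at 72 h in the first table, and 2.8% (Het 3) and 1.64% (cKO 4) in the second. At 48 h the shares were 2.98% in Het 1 and 2.64% in cKO 2. Most of this was lower glycolysis. Gapdh was the most abundant member in 5 libraries and Eno1 in the remaining 1, Het 3. In Het 1 at 72 h Gapdh reached 5475 FPKM, followed by Eno1, Ldha, Pkm, Tpi1 and Aldoa, the last at 2004 FPKM. The least abundant were Pfkfb4, between 3.35 and 4.64 FPKM in all libraries, and Pygl and P4ha2, which ranged from 1.73 to 42.5 and from 0.26 to 32.6 FPKM.

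**Figure D1:**
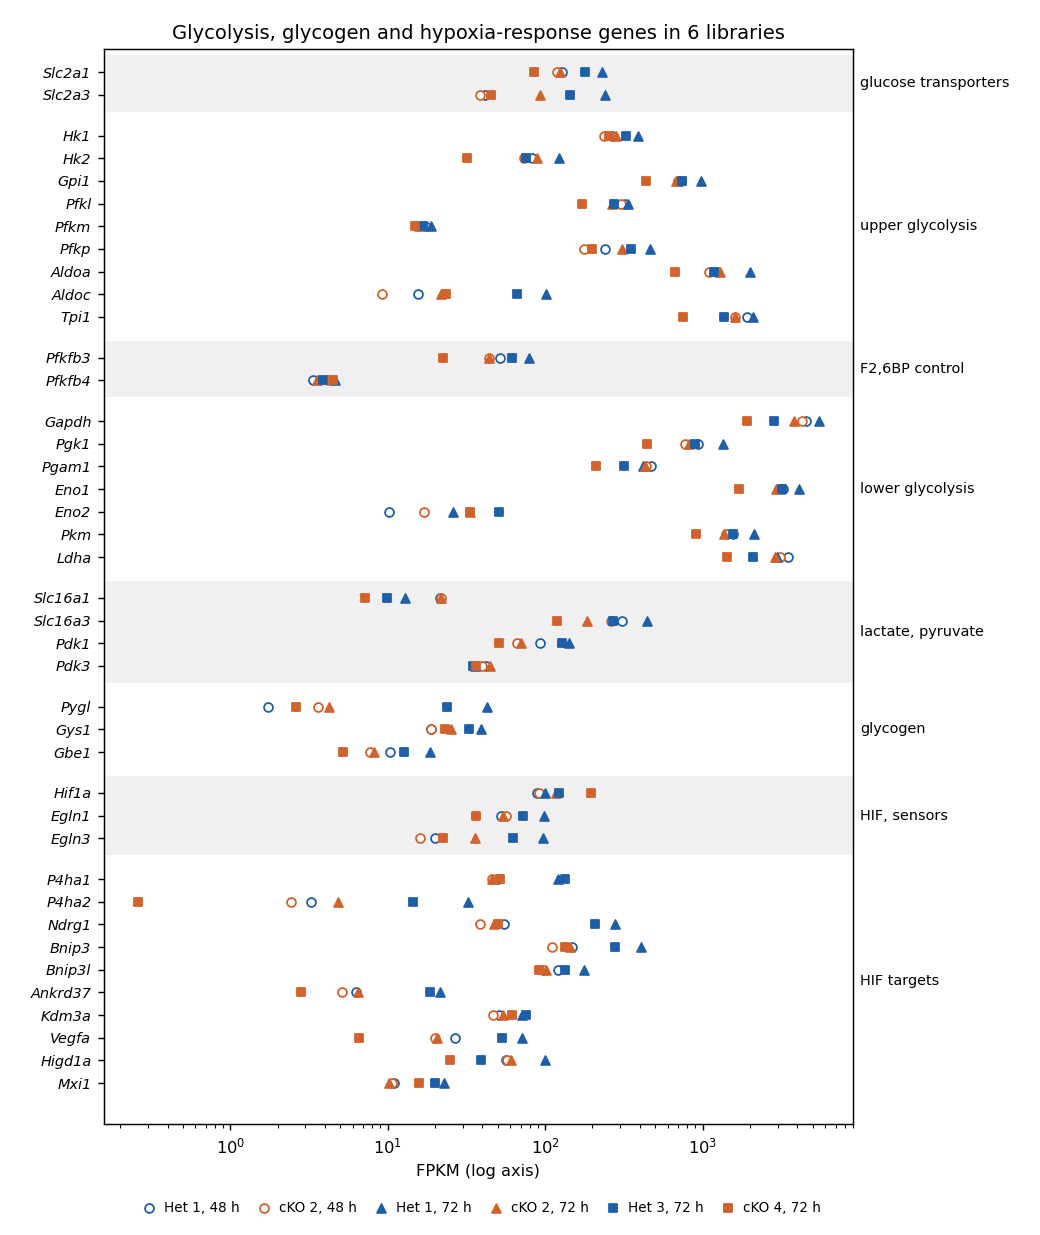
FPKM of the 40 genes on a log axis, 1 point per library, grouped by role. Blue points are Het and orange points cKO, open circles 48 h, triangles the first pair at 72 h and squares the second pair at 72 h. Among HIF targets and glycogen enzymes the blue filled points lie to the right of most others, while for Hif1a the cKO 4 point is the rightmost.

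At 72 h, genes of glucose uptake, glycolysis, glycogen metabolism and the hypoxia response were lower in the libraries labelled cKO than in Het. Of the 40 members, 37 had a negative log2 fold change, and the median was -0.70, beside 0.08 over all 12488 genes tested. The largest differences were those of the collagen prolyl hydroxylase P4ha2, the glycogen phosphorylase Pygl, the angiogenic growth factor Vegfa and the stress gene Ndrg1. The 3 genes on the other side of 0 were Hif1a itself, the pyruvate dehydrogenase kinase Pdk3 and the monocarboxylate transporter Slc16a1. By limma, an adjusted p of 0.05 was reached by no member and by no other gene (0% of genes tested), with a smallest adjusted p of 0.106 over all genes. At an unadjusted p under 0.05, 31 members were lower and 0 higher, beside 6.99% of all genes lower and 10.3% higher. Of the 100 genes with the smallest p, 7 were members. The members were chosen with earlier results of these data known, so these counts are no independent evidence. The fit compared genotypes within each table on the log2(FPKM + 1) scale, which understates differences of genes with low levels, and left 1 residual degree of freedom. Without the term for the table, 19 members were lower at an unadjusted p under 0.05, and no share over all genes is given for that fit.

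Both cKO libraries lay below both Het libraries for 28 members, beside 13.8% of all genes tested. Pdk3 was the 1 member with both cKO libraries above both Het libraries, beside 24.9% of all genes. The ranges of the genotypes overlapped for the other 11, which were Hk2, Aldoa, Tpi1, Pfkfb4, Gapdh, Pgam1, Eno2, Ldha, Slc16a1, Hif1a and Higd1a. Within the tables, 35 members were lower in cKO 2 than in Het 1 (median log2 ratio -0.67) and 37 lower in cKO 4 than in Het 3 (median -0.84). At least 2-fold lower, on the FPKM + 1 scale, were 13 members in the pair of Het 1 and cKO 2 (3.8% of all genes) and 17 in the pair of Het 3 and cKO 4 (1.75% of all genes). No member was at least 2-fold higher in either pair, beside 4.85% and 3.78% of all genes. The summed myeloid markers were higher in cKO in both pairs, at 367.8 against 39.0 FPKM and at 75.64 against 21.88, of which Ltf alone was 75.32 and 21.38 in the second pair, and their part in the result was not tested.

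**Figure D2:**
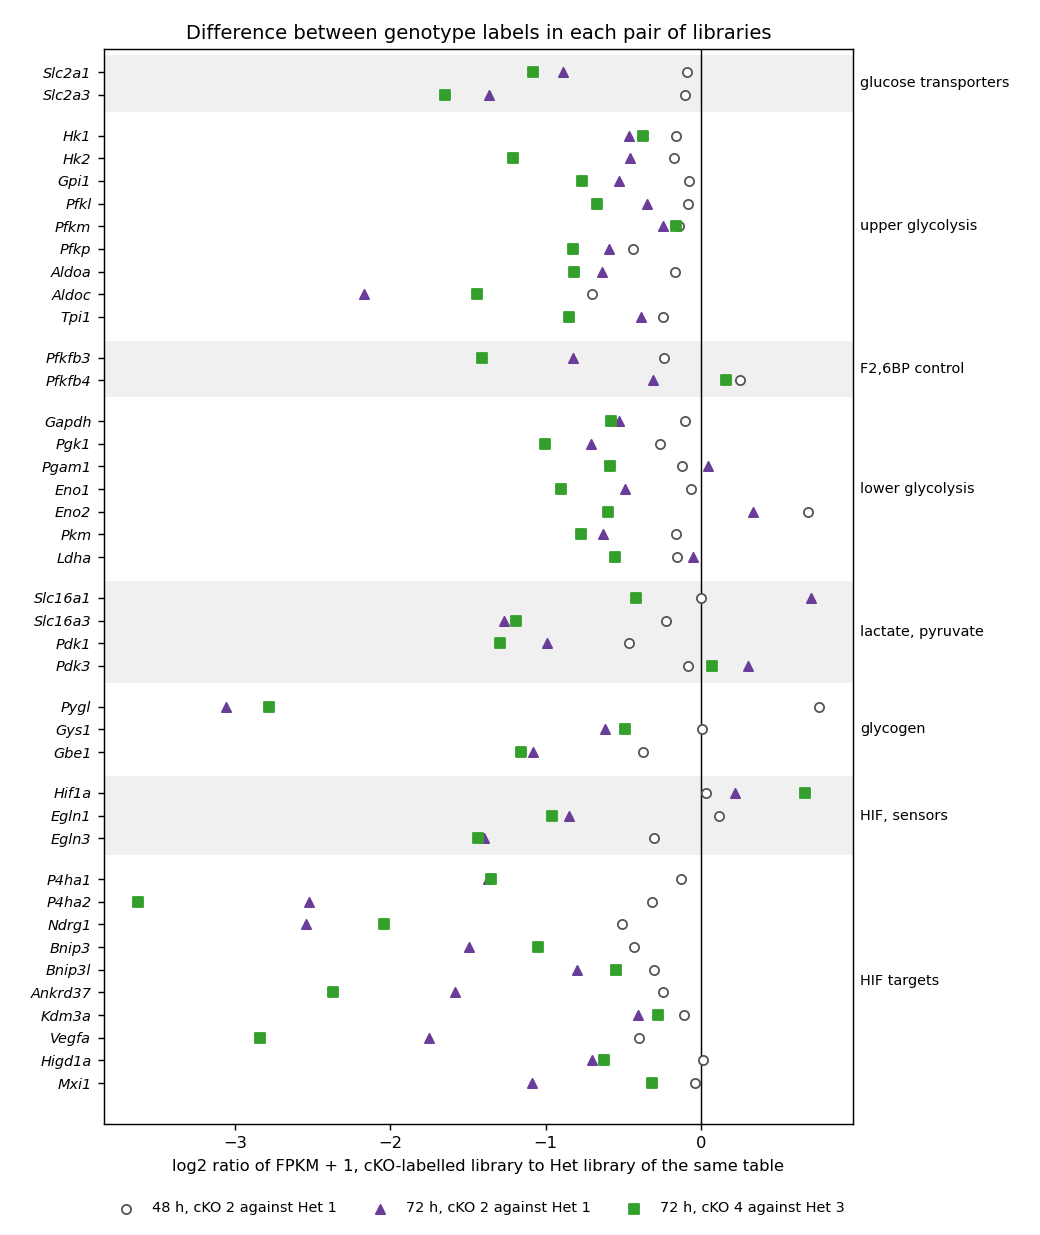
Log2 ratio of FPKM + 1, cKO to Het, for each of the 40 genes in the 3 pairs of libraries, 1 point per pair. Circles (48 h) lie near 0 for most genes, while triangles (72 h, cKO 2 against Het 1) and squares (72 h, cKO 4 against Het 3) lie to the left for most, farthest for P4ha2 and Pygl. Eno2 and Slc16a1 have triangles and squares on opposite sides of 0.

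HIF binds DNA at the core letters ACGTG or GCGTG, which were searched on both strands of the 250 bases before each start in RefSeq's promoter table (GRCm38.p6). A palindromic CACGTG counts on both strands, and overlapping matches count separately. Windows were present for 37 members, and not for Slc2a3, Bnip3l and Ndrg1. The letters occurred before 32 of the 37 (86.5%), beside 41.5% of all 27025 genes with a window and 62.2% of the 8962 of these tested at 72 h. ACGTG alone occurred before 22 members (59.5%), beside 18.5% and 25.6%. A gene counted if any of its windows had a match, and a member could have up to 4 windows. Counted by window, the letters occurred in 74.5% of 55 member windows, beside 38.6% of all 32851. ACGTG occurred in 47.3% of the member windows, beside 16.6% of all. The members include genes listed because they are HIF targets. These windows were rich in G and C, with a median of 62.8% in the members, 52.4% in all genes and 60% in the tested genes.

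The following stretches of 60 bases show the letters in capitals, 5' to 3' in the direction of the gene, for 8 members with lower values in both cKO libraries at 72 h and then for Hif1a and Pdk3, which did not have them. Each is the stretch of its window that holds most matches.
Slc2a1, chr4:119108669-119108728, plus strand: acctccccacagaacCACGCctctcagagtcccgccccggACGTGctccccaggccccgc
Pgk1, chrX:106186932-106186991, plus strand: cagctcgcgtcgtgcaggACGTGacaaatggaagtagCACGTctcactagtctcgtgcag
Slc16a3, chr11:120949007-120949066, plus strand: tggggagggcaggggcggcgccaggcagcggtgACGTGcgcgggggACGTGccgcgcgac
Pygl, chr12:70227714-70227773, minus strand: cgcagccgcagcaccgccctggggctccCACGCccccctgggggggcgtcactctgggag
Egln3, chr12:54204065-54204124, minus strand: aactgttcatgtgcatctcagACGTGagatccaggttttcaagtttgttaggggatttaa
P4ha2, chr11:54100808-54100867, plus strand: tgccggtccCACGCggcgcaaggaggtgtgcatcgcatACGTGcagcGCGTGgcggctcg
Ankrd37, chr8:45999972-46000031, minus strand: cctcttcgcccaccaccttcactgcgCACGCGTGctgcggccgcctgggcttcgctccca
Bnip3, chr7:138909583-138909642, minus strand: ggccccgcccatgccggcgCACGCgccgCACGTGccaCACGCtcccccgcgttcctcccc
Hif1a, chr12:73907705-73907764, plus strand: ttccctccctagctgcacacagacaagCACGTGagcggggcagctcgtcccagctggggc
Pdk3, chrX:93832197-93832256, minus strand: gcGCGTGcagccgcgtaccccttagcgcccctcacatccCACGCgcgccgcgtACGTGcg
The Pgk1 stretch holds ACGTG on both strands, the Slc16a3 stretch holds it in 2 copies close to the start, and the Bnip3 window has 5 matches in all. The Hif1a and Pdk3 windows hold 3 and 4 matches, so the letters occurred before genes with and without lower values. Of the members with a window, Eno2, Gbe1, Gpi1, Gys1 and Tpi1 had no match in it. A match is a run of letters and not a measured binding site.

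Both glucose transporters were lower in cKO at 72 h. Slc2a3, the high-affinity neuronal-type transporter GLUT3, stood at 41.6 FPKM in Het 1 against 38.7 in cKO 2 at 48 h, 239 against 92.3 in the same pair at 72 h, and 144 in Het 3 against 45.1 in cKO 4. At 48 h the pair was close together, and at 72 h both Het libraries were above both cKO libraries. The 72 h log2 fold change came to -1.51 ± 0.14 (SE, n = 2 libraries a genotype, limma adjusted p = 0.106), the error and n given for each 72 h difference that follows. Slc2a1, the widely expressed transporter GLUT1, stood at 127 FPKM in Het 1 against 119.9 in cKO 2 at 48 h, 229.9 against 124 in the same pair at 72 h, and 179.8 in Het 3 against 84.5 in cKO 4, with a log2 fold change of -0.98 ± 0.13 (limma adjusted p = 0.121). For Slc2a1, cKO 2 stood near its 48 h level at 72 h, while Het 1 was well above it. Together the pair of genes summed to 468.6 and 323.5 FPKM in the Het libraries at 72 h, and to 129.6 to 216.2 in the other 4 libraries.

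All 9 enzymes of upper glycolysis, which turn glucose into triose phosphates, had negative values at 72 h, with a median log2 fold change of -0.65, and 8 had an unadjusted p under 0.05. Aldoc, the brain-type aldolase, was at 102 (Het 1) and 65.9 FPKM (Het 3) at 72 h, against 21.8 (cKO 2) and 23.6 (cKO 4), a difference of -1.80 ± 0.22 (limma adjusted p = 0.121). It had been at 15.6 FPKM in Het 1 against 9.26 in cKO 2 at 48 h. Within the first table both genotypes were thus higher at 72 h, and Het 1 more so. Hexokinase 2 (Hk2), the inducible form of the enzyme that traps glucose in the cell, was at 122 (Het 1) and 75.4 FPKM (Het 3) at 72 h, against 88.8 (cKO 2) and 32 (cKO 4). Its groups overlapped, since cKO 2 stood above Het 3, and the log2 fold change of -0.83 ± 0.23 came to -0.46 in the pair of Het 1 and cKO 2 and -1.21 in the pair of Het 3 and cKO 4. At 48 h Hk2 stood at 82.6 in Het 1 and 73.1 in cKO 2.

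Aldoa, the main aldolase of these cells, stood at 1236 FPKM in Het 1 against 1100.3 in cKO 2 at 48 h, 2004 against 1292 in the same pair at 72 h, and 1177 in Het 3 against 668 in cKO 4, with a log2 fold change of -0.72 ± 0.13 (limma adjusted p = 0.158). Pfkp, the platelet-type phosphofructokinase, stood at 241 FPKM in Het 1 against 177 in cKO 2 at 48 h, 463 against 308 in the same pair at 72 h, and 351 in Het 3 against 198 in cKO 4, a difference of -0.70 ± 0.13 (limma adjusted p = 0.161). Pfkp was also lower in cKO 2 at 48 h, with a log2 ratio of -0.44. The other members of the step had smaller differences. Gpi1 (glucose phosphate isomerase), Tpi1 (triose phosphate isomerase), Pfkl (the liver-type phosphofructokinase) and Hk1 (the constitutive hexokinase) had log2 fold changes of -0.65 ± 0.13, -0.62 ± 0.17, -0.51 ± 0.14 and -0.42 ± 0.12. Pfkm, the muscle-type phosphofructokinase, stood at 14.9 to 18.9 FPKM in every library, with -0.20 ± 0.13 at 72 h.

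Fructose 2,6-bisphosphate is the strongest activator of phosphofructokinase, and the Pfkfb enzymes make and break it. Pfkfb3, whose kinase activity dominates, stood at 52.1 FPKM in Het 1 against 44 in cKO 2 at 48 h, 79.2 against 44.3 in the same pair at 72 h, and 61.2 in Het 3 against 22.5 in cKO 4. Its log2 fold change was -1.12 ± 0.19 (limma adjusted p = 0.15), and cKO 4 was the lowest library. Pfkfb4, also known as a HIF target, stood at 3.35 FPKM in Het 1 against 4.18 in cKO 2 at 48 h, 4.64 against 3.56 in the same pair at 72 h, and 3.87 in Het 3 against 4.46 in cKO 4. Its groups overlapped, with -0.07 ± 0.21 at 72 h and log2 ratios of -0.31 and 0.16 in the 2 pairs.

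The 7 enzymes of lower glycolysis, from triose phosphate to lactate, had a median 72 h difference of -0.55, and 4 of them an unadjusted p under 0.05. Pgk1, the first ATP-forming step, stood at 930.1 FPKM in Het 1 against 774 in cKO 2 at 48 h, 1341 against 821 in the same pair at 72 h, and 893 in Het 3 against 446 in cKO 4, with -0.85 ± 0.14 at 72 h (limma adjusted p = 0.145). Pyruvate kinase (Pkm), the second such step, stood at 1571 FPKM in Het 1 against 1407 in cKO 2 at 48 h, 2124 against 1372 in the same pair at 72 h, and 1561 in Het 3 against 913 in cKO 4, with -0.70 ± 0.13 (limma adjusted p = 0.158). Enolase 1 (Eno1) stood at 3258 FPKM in Het 1 against 3116 in cKO 2 at 48 h, 4101 against 2929 in the same pair at 72 h, and 3191 in Het 3 against 1706 in cKO 4, with -0.69 ± 0.16 (limma adjusted p = 0.203). For these 3 genes both cKO libraries lay below both Het libraries at 72 h, and for all 3 Het 3 stood below the 48 h level of Het 1.

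Gapdh, the dehydrogenase often used as a reference gene, stood at 4559 FPKM in Het 1 against 4257 in cKO 2 at 48 h, 5475 against 3799.6 in the same pair at 72 h, and 2859 in Het 3 against 1913 in cKO 4. Its log2 fold change was -0.55 ± 0.13 (limma adjusted p = 0.195), of like size in both pairs (-0.53 and -0.58). The groups overlapped, since Het 3 stood below cKO 2. Lactate dehydrogenase A (Ldha), Pgam1 (phosphoglycerate mutase) and Eno2 (neuronal enolase) had differences of -0.30 ± 0.18, -0.27 ± 0.20 and -0.13 ± 0.27, with overlapping groups. In the pair of Het 1 and cKO 2 their log2 ratios were -0.05, 0.04 and 0.33, and in the pair of Het 3 and cKO 4 they were -0.55, -0.58 and -0.60, so Pgam1 and Eno2 were lower in 1 pair only. The median of lower glycolysis depended on scaling, at -0.28 after quantile normalization.

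Much of lower glycolysis shares sequence with copies elsewhere in the genome. In the GENCODE vM21 transcripts of GRCm38, 82.5% of the 50-base stretches of Gapdh also occur in other genes, among them processed pseudogenes, and 72.2% of those of Eno1, 68.0% of Pgk1, 41.5% of Pgam1 and 34.4% of Pkm. Their values are uncertain to the extent that reads were split between copies. Of the 40 members, 12 had more than 5% of stretches in other genes and 21 had none. Ankrd37, Higd1a and Bnip3 overlap a gene on the other strand with 22.7%, 22.5% and 22.3% of their exon bases, and no strand setting of the counting is given in the sources used here.

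The 4 genes of lactate and pyruvate handling were split, with 2 lower and 2 higher in cKO at 72 h. Slc16a3, the lactate exporter MCT4, stood at 309 FPKM in Het 1 against 264 in cKO 2 at 48 h, 445 against 184 in the same pair at 72 h, and 272 in Het 3 against 119 in cKO 4. Its log2 fold change at 72 h was -1.23 ± 0.12 (limma adjusted p = 0.106). At 72 h cKO 2 was below both libraries of 48 h, and so was cKO 4, which is from the other table. Slc16a1, the transporter MCT1, stood at 21.6 FPKM in Het 1 against 21.7 in cKO 2 at 48 h, 12.9 against 21.8 in the same pair at 72 h, and 9.94 in Het 3 against 7.2 in cKO 4. At 72 h its fold change was 0.15 ± 0.32 (limma adjusted p = 0.831), with 0.71 in the pair of Het 1 and cKO 2 and -0.42 in the pair of Het 3 and cKO 4.

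Pyruvate dehydrogenase kinases switch off the enzyme that feeds pyruvate into the citric acid cycle. Pdk1, the HIF-regulated form, stood at 92.3 FPKM in Het 1 against 66.7 in cKO 2 at 48 h, 141 against 70.4 in the same pair at 72 h, and 127 in Het 3 against 51.3 in cKO 4, with a log2 fold change of -1.14 ± 0.14 at 72 h (limma adjusted p = 0.121). Pdk3 stood at 41.8 FPKM in Het 1 against 39.5 in cKO 2 at 48 h, 35.9 against 44.5 in the same pair at 72 h, and 34.7 in Het 3 against 36.5 in cKO 4, with 0.19 ± 0.14 (limma adjusted p = 0.511). Pdk1 was lower in cKO in all 3 pairs, whereas Pdk3 stayed between 34.7 and 44.5 FPKM in every library.

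Within families of related genes, Pdk1, Slc2a3, Bnip3 and P4ha2 had their largest shares in the Het libraries at 72 h. Pdk1 made up 75.7% and 74.0% of the summed FPKM of the 4 Pdk genes in Het 1 and Het 3 at 72 h, 55.6% and 49.6% in cKO 2 and cKO 4, and 65.0% and 56.8% in Het 1 and cKO 2 at 48 h. Slc2a3 made up 51.0% and 44.4% of the transporter pair in the Het libraries at 72 h, 42.7% and 34.8% in the cKO libraries, and 24.6% and 24.4% at 48 h. Bnip3 made up 69.7% and 67.5% of its pair with Bnip3l in Het at 72 h and 58.6% and 59.5% in cKO. P4ha2 made up 21.2% and 9.8% of its pair with P4ha1 in Het 1 and Het 3 at 72 h, 9.47% and 0.499% in cKO 2 and cKO 4, and 6.1% and 5.02% at 48 h. Pfkp took 51.4% to 56.6% of phosphofructokinase at 72 h in all 4 libraries, against 41.5% and 35.7% at 48 h, and Hk1 took 75.9% to 81.3% of the hexokinases in 5 libraries and 88.7% in cKO 4. Slc16a3 was at least 89.4% of its pair with Slc16a1, and Ldha at least 95.9% of its pair with Ldhb. Shares were each computed within a library and were not tested.

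**Figure D3:**
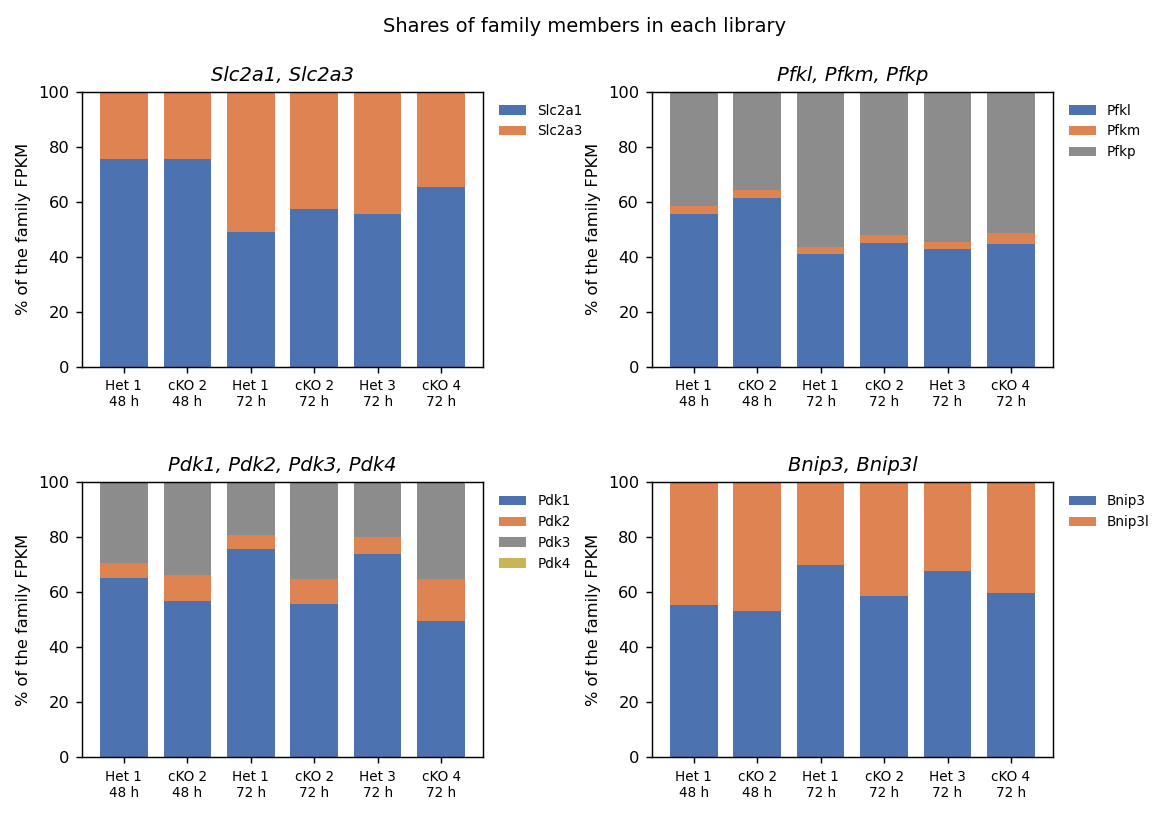
Share of each family member in the summed FPKM of its family (percent, stacked to 100) in the 6 libraries, for glucose transporters, phosphofructokinases, pyruvate dehydrogenase kinases and the Bnip3 pair. Pdk1 and Bnip3 have their largest shares in Het 1 and Het 3 at 72 h (75.7% and 74.0%, 69.7% and 67.5%), while Pfkp differs between times more than between genotypes.

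The 3 glycogen enzymes were lower in cKO at 72 h, with a median log2 fold change of -1.12. Pygl, the liver-type phosphorylase that releases glucose 1-phosphate from glycogen, stood at 1.73 FPKM in Het 1 against 3.62 in cKO 2 at 48 h, 42.5 against 4.23 in the same pair at 72 h, and 23.9 in Het 3 against 2.62 in cKO 4. It was low in all libraries except Het 1 and Het 3 at 72 h, and its log2 fold change of -2.92 ± 0.15 had the smallest p of the 40 members (unadjusted p = 5.5e-05, limma adjusted p = 0.106). With no filter on low values, which raises the number of genes tested, its limma adjusted p was 0.0466. Gbe1, the branching enzyme, stood at 10.3 FPKM in Het 1 against 7.74 in cKO 2 at 48 h, 18.4 against 8.17 in the same pair at 72 h, and 12.8 in Het 3 against 5.17 in cKO 4, with -1.12 ± 0.14 (limma adjusted p = 0.121). Gys1, the muscle-type glycogen synthase, stood at 18.7 FPKM in Het 1 against 18.9 in cKO 2 at 48 h, 39.3 against 25.2 in the same pair at 72 h, and 32.9 in Het 3 against 23.1 in cKO 4, with -0.55 ± 0.13 (limma adjusted p = 0.199). For Gbe1 and Gys1 Het 1 at 72 h exceeded both 48 h libraries, and so did Het 3 of the other table. The lowest Gbe1 level of the 6 was that of cKO 4. Synthesis and breakdown genes were thus low in the same libraries.

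Hif1a transcripts did not follow the targets. Hif1a stood at 88.7 FPKM in Het 1 against 91 in cKO 2 at 48 h, 99.7 against 116 in the same pair at 72 h, and 123 in Het 3 against 196 in cKO 4, and its log2 fold change at 72 h was 0.45 ± 0.17 (unadjusted p = 0.0558, limma adjusted p = 0.298). The highest library was cKO 4, while Het 3 was just above cKO 2, so the groups overlapped. HIF-1alpha is regulated mainly as a protein, which was not measured here. The genes of its oxygen sensors are themselves HIF targets. Egln3 (PHD3) stood at 20 FPKM in Het 1 against 16 in cKO 2 at 48 h, 96.6 against 36.1 in the same pair at 72 h, and 62.2 in Het 3 against 22.4 in cKO 4, with -1.42 ± 0.12 (limma adjusted p = 0.106). Egln1 (PHD2), the main sensor, stood at 52.2 FPKM in Het 1 against 56.7 in cKO 2 at 48 h, 98.6 against 54.3 in the same pair at 72 h, and 72 in Het 3 against 36.6 in cKO 4, with -0.90 ± 0.12 (limma adjusted p = 0.122). For both sensors, Het 1 and Het 3 at 72 h were the 2 highest libraries.

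All 10 HIF targets outside glycolysis were lower in cKO at 72 h, with a median log2 fold change of -1.32, and 9 had an unadjusted p under 0.05. Summed, they reached 1300 FPKM (Het 1) and 975.4 FPKM (Het 3) at 72 h, against 433.7 to 528.1 in the other 4 libraries. P4ha2, a collagen prolyl hydroxylase subunit, stood at 3.26 FPKM in Het 1 against 2.43 in cKO 2 at 48 h, 32.6 against 4.83 in the same pair at 72 h, and 14.5 in Het 3 against 0.26 in cKO 4, a difference of -3.08 ± 0.32 (limma adjusted p = 0.106). The cKO 4 value rests on about 5 fragments, so the size of this difference is poorly determined. Ndrg1, a gene of stress and differentiation responses, stood at 55.2 FPKM in Het 1 against 38.5 in cKO 2 at 48 h, 279 against 47.1 in the same pair at 72 h, and 208 in Het 3 against 49.9 in cKO 4, with -2.29 ± 0.18 (limma adjusted p = 0.106). Both Het libraries at 72 h stood far above every other library.

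Vegfa, the vascular growth factor, stood at 26.7 FPKM in Het 1 against 20 in cKO 2 at 48 h, 71 against 20.4 in the same pair at 72 h, and 53 in Het 3 against 6.54 in cKO 4, with -2.29 ± 0.30 (limma adjusted p = 0.121). Ankrd37, an ankyrin repeat protein, stood at 6.27 FPKM in Het 1 against 5.15 in cKO 2 at 48 h, 21.5 against 6.51 in the same pair at 72 h, and 18.6 in Het 3 against 2.8 in cKO 4, with -1.98 ± 0.24 (limma adjusted p = 0.121). In both genes cKO 4 was the lowest library and cKO 2 at 72 h was near its 48 h level. P4ha1, the other collagen prolyl hydroxylase subunit, was at 45.9 to 51.8 FPKM in all libraries except Het 1 and Het 3 at 72 h, where it was at 120.9 and 133.8, a difference of -1.36 ± 0.12 (limma adjusted p = 0.106). Bnip3, a receptor for the removal of mitochondria, was at 405 (Het 1) and 279 FPKM (Het 3) at 72 h, against 143 (cKO 2) and 134 (cKO 4), with -1.27 ± 0.16 (limma adjusted p = 0.121).

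The remaining 4 targets had smaller differences. Mxi1, an antagonist of Myc, Bnip3l, a relative of Bnip3, Higd1a, a mitochondrial protein, and the histone demethylase Kdm3a had log2 fold changes of -0.70 ± 0.23, -0.67 ± 0.14, -0.66 ± 0.12 and -0.34 ± 0.13. The genotypes overlapped for Higd1a, since Het 3 (39.2 FPKM) stood below cKO 2 (60.9 FPKM). Markers of cycling cells differed in the same direction, since Mki67, Top2a, Ccnb1, Cdk1 and Birc5 summed to 1366 and 1209 FPKM in Het 1 and Het 3 at 72 h against 757.2 and 778.2 in cKO 2 and cKO 4, and to 1024 and 770.7 at 48 h. Their part in the result was not tested.

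Other genes of the same pathways, from lists that hold none of the 40, gave a mixed picture at 72 h. These lists were also chosen with earlier results of these data known, so their counts are no independent evidence. Of 11 measured glycolysis genes outside the 40, 9 were higher and 2 lower in cKO (median 0.27). At an unadjusted p under 0.05, 4 were higher and 1 lower, beside 10.3% and 6.99% of all genes. Slc2a6, a transporter of lysosomal membranes, was at 3.83 (Het 1) and 3.18 FPKM (Het 3) at 72 h, against 15.5 (cKO 2) and 12.6 (cKO 4), a log2 fold change of 1.74 ± 0.15 (limma adjusted p = 0.106). Ldhb, the heart-type lactate dehydrogenase subunit, and Bpgm, which makes 2,3-bisphosphoglycerate, were also higher, at 0.85 ± 0.15 and 0.77 ± 0.13, while the ADP-dependent glucokinase Adpgk was lower, at -0.73 ± 0.13. Lower values were thus not shared by all genes of the pathway.

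Targets of hypoxia outside the 40 were mostly lower, 23 of 26 measured (median -0.42). At an unadjusted p under 0.05, 12 were lower and 1 higher, beside 6.99% and 10.3% of all genes. This list too was chosen with earlier results known, and it shares Pfkfb2 with the list of glycolysis genes. Stc2, a secreted glycoprotein, was at 56.2 (Het 1) and 64.2 FPKM (Het 3) at 72 h, against 5.1 (cKO 2) and 8.76 (cKO 4), with -2.98 ± 0.18 (limma adjusted p = 0.106). Ero1l, an oxidase of the endoplasmic reticulum, was at -1.39 ± 0.12, Anxa2, a membrane-binding annexin, at -2.39 ± 0.38 and the transcription factor Zfp395 at -1.13 ± 0.16. The 1 higher at an unadjusted p under 0.05 was Tfrc, the transferrin receptor, at 0.48 ± 0.12.

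The other 4 lists were near the median of all genes. Glycogen genes outside the 40 had a median of -0.07 over 15 measured. At an unadjusted p under 0.05, 2 were higher and 2 lower, beside 10.3% and 6.99% of all genes. Ppp1r3b, which brings protein phosphatase 1 to glycogen, and Pgm1, a phosphoglucomutase, were lower, at -0.93 ± 0.14 and -0.72 ± 0.13, while the lysosomal glucosidase Gaa and the phosphorylase kinase subunit Phkb were higher, at 0.62 ± 0.15 and 0.51 ± 0.18. The HIF pathway's other 10 measured genes had a median of 0.01, with the ubiquitin ligase scaffold Cul2 at 0.59 ± 0.14 and the HIF-binding subunit Vhl at -0.42 ± 0.13. Genes that carry pyruvate to acetyl-CoA had a median of 0.10 over 11 measured, led by the pyruvate dehydrogenase subunit Dlat at 0.48 ± 0.16 and by Pdk2 at 0.42 ± 0.16. The 8 pentose phosphate genes had a median of 0.08, with Rpe (an epimerase) at 0.38 ± 0.13 and H6pd, an enzyme of the endoplasmic reticulum, at -0.35 ± 0.13. No gene of the 6 lists passed limma's adjusted p of 0.05 in the fit reported here. With no filter on low values, the limma adjusted p of Stc2 was 0.0466.

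**Figure D4:**
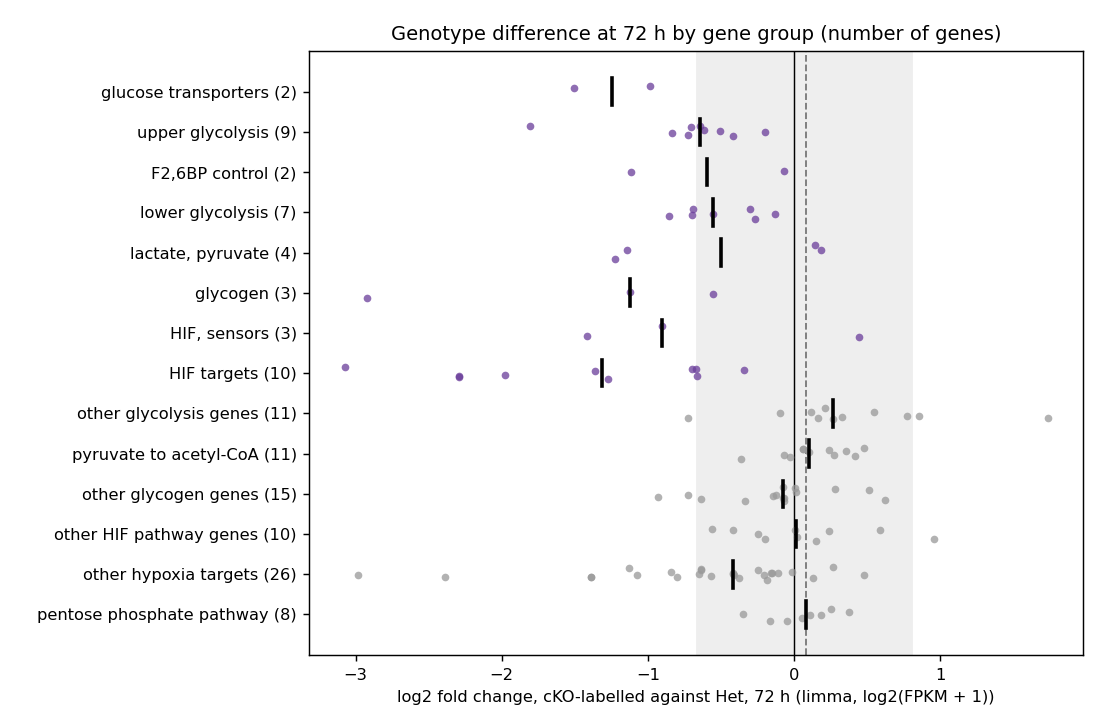
Log2 fold change at 72 h (cKO against Het, limma on log2(FPKM + 1)) of each gene in the 8 role groups (purple) and 6 lists of other pathway genes (grey), with a black bar at each median. The band spans the 5th to 95th percentile of all genes tested (-0.66 to 0.81) and the dashed line their median of 0.08. Medians run from -1.32 to -0.50 in the role groups and from -0.42 to 0.27 in the other lists.

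At 48 h, with 1 library per genotype and hence no test, the median difference of the 40 genes was smaller than in either pair of 72 h. The median log2 ratio of cKO 2 to Het 1 was -0.14, beside -0.00 over 12394 genes, with 32 members lower and 8 higher. No member was at least 2-fold lower or higher, beside 0.799% and 1.11% of all genes. Pygl stood at 3.62 FPKM in cKO 2 and 1.73 in Het 1 (log2 ratio 0.76) and Eno2 at 17.1 and 10.2 (0.69), the highest ratios, while Aldoc had the lowest (-0.70). The median ratio was -0.27 for HIF targets and -0.09 for glucose transporters. This pair also held the myeloid difference given above, 428.7 FPKM of marker genes in cKO 2 against 44.03 in Het 1, and its part in these ratios was not tested.

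Between 48 h and 72 h, the members stood mostly higher in Het 1 and near their earlier levels in cKO 2. In Het 1, 36 of 40 members were higher at 72 h (median log2 ratio 0.60, beside -0.03 over all genes), and 12 were at least 2-fold higher, beside 4.57% of all genes. In cKO 2, 28 were higher (median 0.07, beside 0.03), and 3 were at least 2-fold higher, Slc2a3, Aldoc and Egln3, beside 2.83% of all genes. HIF targets outside glycolysis had a median of 1.31 in Het 1 and 0.14 in cKO 2, glycogen enzymes 1.03 and 0.18, and lower glycolysis 0.33 and -0.04. Pygl had the largest ratio in Het 1, 4.0, and stood at 0.18 in cKO 2. Each of these ratios compares 1 library with 1 other.

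**Figure D5:**
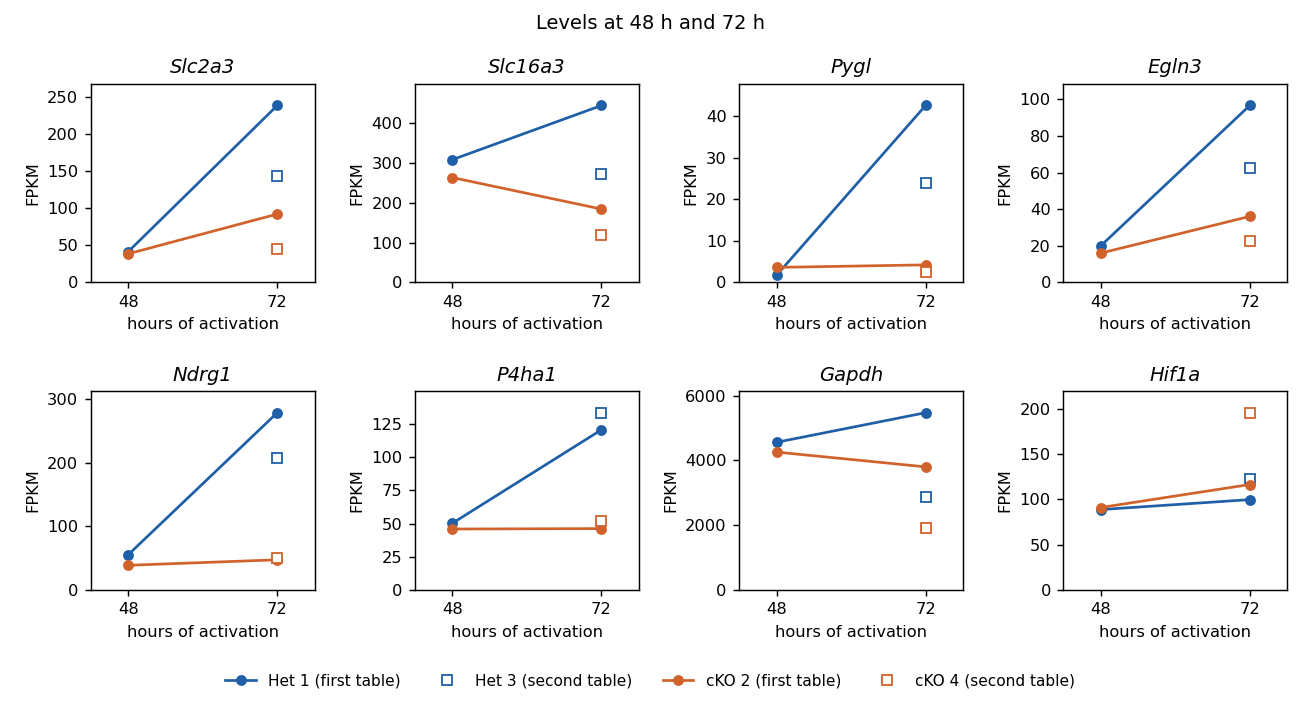
FPKM of 8 members against hours of activation. Lines join Het 1 (blue) and cKO 2 (orange) between 48 h and 72 h, and open squares are Het 3 and cKO 4 at 72 h. Het is above cKO at 72 h in both pairs for Slc2a3, Slc16a3, Pygl, Egln3, Ndrg1, P4ha1 and Gapdh, while Hif1a is higher in cKO within each pair.

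In the additive fit of genotype, time and table over all 6 libraries, 35 members had a positive time term, with a median of 0.41 beside 0.00 over all genes. Limma called 3 genes at an adjusted p under 0.05 (0.0242% of 12394), the granzyme Gzmb, the transglutaminase Tgm2 and Cd8a, and no member. At an unadjusted p under 0.05, 10 members were higher and 0 lower, beside 6.45% of all genes higher and 4.63% lower. The 5 largest time terms were those of Pygl (2.09 ± 0.94), Aldoc (1.89 ± 0.34), P4ha2 (1.87 ± 0.75), Slc2a3 (1.86 ± 0.38) and Egln3 (1.67 ± 0.30), and the smallest limma adjusted p of a member was 0.26. The count of 10 rested on single libraries, at 4 without Het 1 of 48 h, 23 without cKO 2 of 48 h and 5 without Het 1 of 72 h. No share over all genes is given for the fits with a library left out. Cd8a was at 20.3 (Het 1) and 39.0 FPKM (cKO 2) at 72 h and at 2.24 or less elsewhere. The part of CD8 T cell transcripts in the members' time terms was not tested.

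The interaction of genotype and time asked whether the genotype difference at 72 h differed from that at 48 h. It was negative for 37 members, with a median of -0.64 beside 0.09 over all genes, and 15 members were lower and 0 higher at an unadjusted p under 0.05, beside 2.28% of all genes lower and 3.43% higher. None passed limma's adjusted p, nor did any gene (0%), with a smallest adjusted p of 0.742. Pygl had the largest term, -3.68 ± 0.28 (unadjusted p = 0.000264, limma adjusted p = 0.742). P4ha2 followed with -2.76 ± 0.56, Vegfa with -1.90 ± 0.53, Ndrg1 with -1.78 ± 0.30 and Ankrd37 with -1.73 ± 0.42. Among the role groups, 7 of 10 HIF targets and both glucose transporters, but 0 of 7 enzymes of lower glycolysis, had an unadjusted p under 0.05. This fit has 1 residual degree of freedom and rests on a single library per genotype at 48 h.

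Over both times together, with 3 libraries per genotype, 35 members were lower in cKO, with a median of -0.54 beside 0.05 over all genes. Limma's adjusted p was above 0.05 for every gene (0% of 12394 called, smallest 0.343), and 27 members were lower and 0 higher at an unadjusted p under 0.05, beside 5.28% of all genes lower and 8.04% higher. The members with the smallest p were Pfkp at -0.62 ± 0.11, Pdk1 at -0.92 ± 0.18 and Aldoc at -1.44 ± 0.28, which were lower in cKO in all 3 pairs. Pygl, at -1.69 ± 0.77, was not among the 27. The count depended on the libraries, at 12 without Het 3, 12 without cKO 4, 14 without Het 1 of 72 h, 15 without cKO 2 of 72 h and 16 without the table term. No share over all genes is given for these other fits. The comparison over both times shares its 72 h libraries with the tests above and is no independent evidence.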

How the data were processed

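RNA from 6 libraries of sorted, activated regulatory T cells was sequenced after SMART-Seq v4 preparation, per the labels' protocols. The authors deposited FPKM values in 2 tables, which share 47347 entries. The submitters' processing notes name Bowtie2 2.2.3, TopHat2 2.0.12, HTSeq 0.6.1 and the mouse build mm9, while for the tools' roles, the annotation and the strand the answer is not given in the sources used here. Of the shared entries, 47069 carried an Ensembl ID, of which 46488 matched a symbol, and 278 with a running number only were left out. No gene coordinates on mm9 are printed.

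The 40 members, the role groups and the pathway lists were chosen with earlier results of these data known. Depth was estimated from the steps of low FPKM values, 86.6% to 87.5% of which came to whole fragments (tolerance 0.02), and it was used only to describe libraries. FPKM are not counts and no count test was used. The tests used log2(FPKM + 1) in limma 3.58.1 in R 4.3.3, with variances that follow a trend with expression, for genes whose mean over the fitted libraries reached 1 FPKM, and p-values were adjusted by Benjamini-Hochberg over all of them.

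The table entered each fit as a term, so genotypes were compared within tables. The time and both-times results come from 1 additive fit of all 6 libraries with 2 residual degrees of freedom, while the 72 h and interaction fits had 1. Fits were checked on simulated data. Values in every library are given for Noc4l, Foxp3, Hif1a, the 4 members of each role group with the largest 72 h difference, and members whose sign was opposite to their group's median, while for time and the interaction the 5 largest terms are named. Of each pathway list, 2 to 4 genes with the smallest p at 72 h are named. Tfrc, the genes that passed for time and the shares of family members lie outside this rule. Other settings tried were pseudocounts of 0.1 and 5, no filter or a filter of 5 FPKM, rescaling to TPM, quantile normalization, median centring, the variance trend, the table term, each library left out in turn and a replicate block for time. Shares of all genes at an unadjusted p under 0.05 are given for the main fits only, not for these settings. Sequence stretches shared with other genes were counted on GENCODE transcripts of GRCm38, another build than the authors', and promoter windows are RefSeq's. Tables and figures used Python 3.11.15, pandas 2.3.3 and matplotlib 3.10.9.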

Additional observations from a re-analysis of the deposited data

Results flagged for a closer look

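Pygl, the liver-type glycogen phosphorylase, was higher in cKO 2 than in Het 1 at 48 h (log2 ratio 0.76) and lower in cKO in both pairs at 72 h, and the difference between the times was -3.68 ± 0.28 on the log2 scale (SE, unadjusted p = 0.000264, limma adjusted p = 0.742). The 48 h ratio of Pygl rests on low values in 1 library per genotype, 3.62 FPKM in cKO 2 against 1.73 in Het 1. The summed myeloid markers stood at 428.7 and 44.03 FPKM in these libraries, and their part in the ratio was not tested. Slc16a3, the lactate exporter MCT4, was higher at 72 h than at 48 h in Het 1 (log2 ratio 0.53) and lower in cKO 2 (-0.51), a difference of -1.04 between these pairs of libraries. Its interaction term in the fit of all 6 libraries was -1.0 ± 0.21 (limma adjusted p = 0.744).

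The genotype difference at 72 h had opposite signs in the 2 tables for 4 members, and for Eno2 and Slc16a1 it was at least 0.3 on the log2 scale in each. Eno2, the neuronal enolase, had log2 ratios of 0.33 (Het 1 and cKO 2) and -0.60 (Het 3 and cKO 4), a difference of -0.93, and Slc16a1, the transporter MCT1, had 0.71 and -0.42, a difference of -1.13. The other members, Pgam1 (0.0438 and -0.58) and Pfkfb4 (-0.31 and 0.16), were below 0.3 in 1 table. These differences between tables were not tested.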

How the results depend on the processing

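At 72 h, 0 genes passed limma's adjusted p of 0.05 as reported and 8 with no filter on low values. Among them were Pygl and, from the list of other hypoxia targets, Stc2 (limma adjusted p = 0.0466 for each). Without the table term 19 members were lower at an unadjusted p under 0.05, with no share over all genes given. Leaving out 1 library of 72 h leaves no residual degree of freedom, so only values are given: the members' median ran from -0.84 to -0.67. Among single members the direction turned for Pfkfb4 (-0.31 to 0.16), Slc16a1 (-0.42 to 0.71), Pgam1 (-0.58 to 0.0438) and Eno2 (-0.60 to 0.33), and for these 4 alone of the 40. Without either library of the pair of Het 1 and cKO 2, Pfkfb4 stood at 0.16 and Slc16a1 at -0.42, and without either of Het 3 and cKO 4, Pgam1 stood at 0.0438 and Eno2 at 0.33. After quantile normalization the median of lower glycolysis was -0.28 and that of glycogen enzymes -1.24, and the cause was not tested.

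Over both times, leaving out single libraries gave 0 to 7 genes past the adjusted threshold, 12 to 31 members lower at an unadjusted p under 0.05 and medians from -0.70 to -0.40, and without the table term 16 members were lower. The 7 genes, found without Het 3 or without cKO 4, were S100a8, S100a9, Ngp, Camp, Lcn2, Chil3 and Lyz2, and none is a member. For time, the 3 genes became 1 with a pseudocount of 5 and 0 with no filter, without the table term or with the replicate number as a block, and 0 to 4 without single libraries. There, 4 to 23 members were higher at an unadjusted p under 0.05, with medians from 0.0701 to 0.74, and the median was 0.17 without the table term. The interaction's median ran from -0.67 to -0.51 without single libraries of 72 h, and it could not be estimated without either library of 48 h. The replicate numbers 1 and 2 coincide with the genotypes within the first table, so the block gave the same time terms with 1 fewer degree of freedom, and pairing and genotype cannot be told apart. Depth limits P4ha2 in cKO 4, at about 5 fragments.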

Other observations

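Some genes of neighbouring pathways stood at other levels at 72 h than at 48 h, and those given here were chosen after their values were seen. None reached a limma adjusted p of 0.05. Eno3, the muscle-type enolase, stood at 467 FPKM in Het 1 against 407 in cKO 2 at 48 h, 139 against 233 in the same pair at 72 h, and 71.4 in Het 3 against 91.5 in cKO 4, a time term of -1.27 ± 0.23 (SE, limma adjusted p = 0.271). Its share of enolase FPKM was 12.5% (Het 1) and 11.5% (cKO 2) at 48 h and 2.15% to 7.28% in the 4 libraries of 72 h, while Eno2 took 0.274% and 0.483% at 48 h and 0.612% to 1.83% at 72 h. Ppp1r3b, which directs protein phosphatase 1 to glycogen, stood at 10.4 FPKM in Het 1 against 6.4 in cKO 2 at 48 h, 28.4 against 13.2 in the same pair at 72 h, and 20.4 in Het 3 against 11.2 in cKO 4, with a time term of 1.15 ± 0.16 (limma adjusted p = 0.202). Hif3a, a relative of Hif1a that can restrain it, was at 1.41 FPKM in Het 1 against 0.94 in cKO 2 at 48 h, 4.29 against 1.95 in the same pair at 72 h, and 2.04 in Het 3 against 1.49 in cKO 4. Of 8 pentose phosphate genes, 7 had a negative time term (median -0.26), with G6pdx, the entry enzyme of the pathway, at -0.41 ± 0.14 and the transketolase Tkt at -0.33 ± 0.12 (limma adjusted p = 0.429 and 0.437).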
